A study of Homo sapiens with 15 samples.

Results

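The genes described here are 50 splicing factor genes, chosen by gene symbol from the 60649 genes in each count table. They fall into 8 role groups, namely 7 Sm core proteins, 5 proteins of the U1 and U2 small nuclear ribonucleoproteins (snRNPs), 5 LSm proteins, 4 snRNP assembly factors, 12 SR and SR-like proteins, 11 heterogeneous nuclear ribonucleoproteins (hnRNPs), 4 genes of the SF3B and U2AF complexes, and 2 CLK kinases. The study sequenced RNA from HSC-5, an established human squamous cell carcinoma line, after CRISPR targeting of the arginine methyltransferase PRMT5 or of its partner WDR77. There were 15 libraries in 5 groups of 3, each labelled as a biological replicate. The control group, sgNeg, has the genotype label WT, the groups sgPRMT5-1 and sgPRMT5-2 have the label PRMT5 Knockout, and the groups sgWDR77-1 and sgWDR77-2 have the label WDR77 Knockout. Every group, the control included, carries the treatment label Neomycin. The sgRNAs were delivered by virus, and the methods state that knockout was complete and was checked by qRT-PCR, while the series text speaks of genes that were knocked down. Whether the cells of a group are single clones is not given in the sources used here. The 6 libraries of each targeted gene were also pooled, as PRMT5KO and WDR77KO, and each was compared with the 3 sgNeg libraries, which both comparisons share.

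Pre-mRNA splicing is carried out by snRNPs, most of which carry a ring of Sm proteins around their small nuclear RNA, and SR proteins and hnRNPs bind the pre-mRNA and steer where the splice sites are used. PRMT5 and WDR77 form the methylosome, which places symmetric dimethyl groups on arginines next to glycines in the tails of SmB, SmD1 and SmD3 and so prepares them for loading onto RNA by the SMN complex. In squamous epithelium, as in other tissues, splicing factors are expressed in most cells. The values below are RNA levels, and neither methylation nor protein was measured in these libraries. SNRPB, SNRPD1 and SNRPD3 encode the 3 tail-methylated Sm proteins, and the stretch below is, for SNRPB and for SNRPD3, the coding exon with the most arginine codons followed directly by a glycine codon. It is printed 5′ to 3′ on the coding strand from the hg38 reference genome, with each such pair of codons in capitals, and positions are those of the canonical transcript in the GENCODE annotation. The SNRPB stretch is exon 5 at chr20:2463089-2463227 on the minus strand, and it holds 3 of the 8 pairs among the 231 codons of the gene. The SNRPD3 stretch is exon 4 at chr22:24571916-24571974 on the plus strand, and it holds 4 of the 7 pairs among 126 codons.
SNRPB exon 5: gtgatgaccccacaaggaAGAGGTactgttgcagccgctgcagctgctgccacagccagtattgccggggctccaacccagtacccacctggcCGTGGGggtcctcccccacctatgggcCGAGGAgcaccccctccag
SNRPD3 exon 4: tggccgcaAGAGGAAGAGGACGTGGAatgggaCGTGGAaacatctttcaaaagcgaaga
Of the pairs shown, 3 stand back to back in SNRPD3, and those in SNRPB stand apart from each other.

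Library depth, as reads counted in genes, ran from 5146711 in sgWDR77-1 replicate 2 to 6730428 in sgPRMT5-2 replicate 1, with a median of 5806938. Levels are given as CPM (counts-per-million), the count divided by the library total and its TMM scaling factor, and the order of values within a group is always replicate 1, 2, 3. Changes are log2 fold changes from limma voom, fitted on all genes of the groups compared, and a gene is called when its p-value, adjusted over all genes tested, is under 0.05. These p-values measure the spread among these libraries alone. All 50 members passed the filter on low counts in each of the 9 comparisons. The targeted genes were read first. PRMT5 (ENSG00000100462.16) stood at 59.1, 49.6 and 67.8 CPM in sgNeg, at 33.0, 35.8 and 41.4 in sgPRMT5-1, and at 44.2, 44.5 and 39.4 in sgPRMT5-2. All 6 PRMT5KO libraries lay below all 3 sgNeg libraries, with a log2 fold change of −0.57 (SE 0.119, adjusted p 0.00874). WDR77 (ENSG00000116455.14) stood at 125, 114 and 119 CPM in sgNeg, at 30.8, 52.0 and 53.3 in sgWDR77-1, and at 26.6, 24.9 and 22.0 in sgWDR77-2. All 6 WDR77KO libraries lay below all 3 sgNeg libraries, with a log2 fold change of −1.86 (SE 0.216, adjusted p 9e-05). RNA of both targeted genes was therefore still counted in every library of its knockout. PRMT5 was not called in WDR77KO (log2 fold change 0.12, adjusted p 0.733), and WDR77 was not called in PRMT5KO (0.11, adjusted p 0.394). By western blot, the paper reports that PRMT5 depletion reduced PRMT5 protein and led to loss of WDR77 protein. WDR77 depletion likewise reduced PRMT5 protein in the paper's blots, which included HSC-5 cells with the same sgRNAs. The values here are RNA and do not measure protein.

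Markers of the labelled cell type were present, since all 8 squamous epithelial markers had reads and 7 had a mean over 1 CPM, with KRT17 highest at 928 CPM and KRT14 at 0.440. Their summed level was 2227, 2276 and 2712 CPM in sgNeg, 2223, 2383 and 2138 in sgPRMT5-1, 1814, 1800 and 1888 in sgPRMT5-2, 1896, 1750 and 1803 in sgWDR77-1, and 2590, 2543 and 2601 in sgWDR77-2. The sum in sgPRMT5-2 and in sgWDR77-1 lay below every other library. The sum joins markers that differ in opposite ways between the groups. KRT5 stood at 512, 638 and 817 CPM in sgNeg, at 335, 250 and 227 in sgPRMT5-1, at 61.3, 52.2 and 54.1 in sgPRMT5-2, at 43.4, 42.8 and 33.8 in sgWDR77-1, and at 101, 91.0 and 81.9 in sgWDR77-2. Every library of the 4 sgRNAs lay below sgNeg for KRT5, as for KRT6A, at 16.3 to 30.8 CPM in sgNeg and 0.777 to 9.17 elsewhere. PKP1 had at least 5.59 CPM in each sgNeg library and between 0.933 and 6.30 elsewhere. KRT17 stood at 1420, 1421 and 1453 CPM in sgWDR77-2 and between 690 and 980 in the other libraries. The part of these markers in the member values was not tested. Fibroblast markers had reads for 5 of 6 genes and summed to between 6.69 and 16.2 CPM, with COL1A1 highest at 10.7 and COL1A2 at 0. Leukocyte markers had reads for 4 of 5 genes and summed to between 0.36 and 1.86 CPM, with CD14 highest at 0.966 and CD3E at 0. Melanocyte markers had reads for 2 of 4 genes and summed to between 2.55 and 7.48 CPM, with PMEL highest at 3.48 and TYR and DCT at 0. Endothelial markers had reads for 3 of 4 genes, with CDH5 highest at 20.0 CPM and KDR at 0. Their sum was 34.2, 31.3 and 36.1 CPM in sgWDR77-1 and between 12.7 and 24.9 in the other libraries, and its part in the member values was not tested.

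A single library stood apart from its group by the member values themselves, with earlier results of these data known. In sgWDR77-1 replicate 1, 14 of the 50 members lay more than 0.5 on the log2 scale from the sgNeg mean, against at most 4 in any other library, and they ran from −1.58 for SNRPB to 1.13 for HNRNPR. Of all genes, 29.0% lay that far from the sgNeg mean in this library, against 14.7% and 16.7% in replicates 2 and 3 of the same group and 27.1% to 27.4% in the sgPRMT5-2 libraries. By the share of all genes it was thus near sgPRMT5-2, and it stood apart by its members and from its own group. Values without it are given beside those it moves most. Other libraries differed in quality measures. sgNeg replicate 2 had the highest share of reads outside genes, 7.16%, and the highest mitochondrial share, 2.54%, followed by sgWDR77-1 replicate 2 at 6.04% and 2.26% and replicate 3 at 5.70% and 2.11%. The members together held between 1.09% of gene counts, in sgWDR77-1 replicate 3, and 1.41%, in sgWDR77-1 replicate 1. In bulk RNA, fewer cells expressing a gene and less of its RNA per cell cannot be told apart.

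In the control cells the members ranged from 0.121 to 153 CPM per kilobase of exon, the scale used here to compare the members with each other. Without U2AF1, the lowest member, the range began at 1.39. The 5 highest members were hnRNPs, RNA-binding proteins that coat nascent transcripts. HNRNPK had a mean of 153, HNRNPA1 148, HNRNPF 129, HNRNPA2B1 118 and HNRNPC 112 CPM per kilobase. The lowest was U2AF1 at 0.121, followed by CLK4 at 1.39, LSM11 at 2.11, CLK1 at 2.86 and LSM6 at 7.10 CPM per kilobase. CLK1 and CLK4 are kinases that phosphorylate SR proteins, and LSM11 belongs to the U7 snRNP that processes histone mRNA. U2AF1 encodes the small subunit of the factor that recognizes the 3′ splice site, and a nearly identical copy, U2AF1L5, is annotated. U2AF1L5 had between 0 and 11 reads per library, and reads placed more than once were not counted by the authors, so the level of U2AF1 is uncertain. By role group, the median level was 65.1 CPM per kilobase for hnRNPs, 41.5 for SF3B and U2AF, 35.5 for U1 and U2 proteins, 32.4 for the Sm core, 25.5 for SR proteins, 12.1 for assembly factors, 8.16 for LSm proteins and 2.13 for CLK kinases. Within the Sm core, where the ring takes each protein once, the RNA level ran from 7.46 for SNRPD3 to 98.7 for SNRPD2. The exon length is summed over all annotated transcripts, 3914 bases for SNRPD3 and 1441 for SNRPD2, and need not be that of the expressed RNA. Before division by length the sgNeg means were 29.2 CPM for SNRPD3 and 142 for SNRPD2. The order of members by level depends on these lengths.

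**Figure D1:**
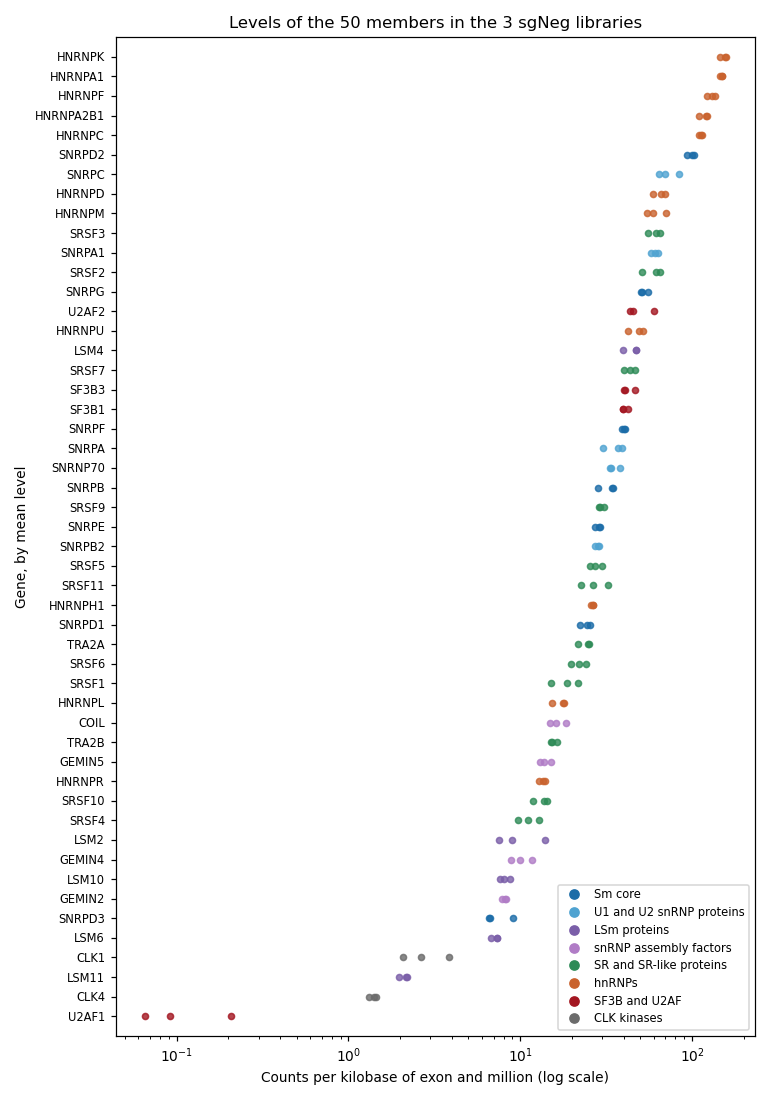
Level of each member in the 3 sgNeg libraries in CPM per kilobase of summed exon length (log axis), ordered by mean level and colored by role group. HNRNPK is highest at 153 and U2AF1 lowest at 0.121.

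Against sgNeg, 8 of the 50 members were called in PRMT5KO, all 8 higher. That is 16% of members, beside 17.0% of the 14071 genes tested, of which 8.73% were higher and 8.30% lower, so the share called was near the background. By limma voom 8 members were higher and 0 lower, and the difference of this split from that of all genes was not tested. At an unadjusted p under 0.05 there were 17 members, beside 33.6% of all genes, of which only LSM11 was lower, and limma-trend called 7. The log2 fold change was positive for 38 of 50 members, against 49.4% of all genes, and its median was 0.115 over the members and −0.006 over all genes. Scaling moved the median of all genes to between −0.069 (library totals alone) and 0.031 (upper quartile), and with library totals alone 4 members were called, SNRPC, HNRNPM, HNRNPU and U2AF2, beside 16.3% of all genes. With upper quartile scaling 12 were called, beside 18.9% of all genes, adding SRSF1, SRSF2, TRA2B and HNRNPK to the 8.

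The 8 calls depended on single libraries. Without sgNeg replicate 1, 0 members were called by limma voom, with 11 at an unadjusted p under 0.05, beside 3.43% of all genes called. Without sgNeg replicate 2 there were 2, HNRNPM and HNRNPU, beside 4.8% of all genes, and without sgNeg replicate 3 there were 5, beside 9.19%. Without sgPRMT5-1 replicate 1 there were 12, beside 25.3% of all genes, without replicate 2 there were 9, beside 22.2%, and without replicate 3 there were 4, beside 13%. Without sgPRMT5-2 replicate 1, replicate 2 or replicate 3, 4 members were called each time, SNRPC, HNRNPM, HNRNPU and U2AF2, beside 9.32%, 9.37% and 9.9% of all genes. The number of members called was lowest where the share of all genes called was lowest, and highest where that share was highest. In between it did not always follow, with 5 beside 9.19% and 4 beside 13%. The log2 fold changes of the 8 members stayed positive in all 9 of these fits. The median width of the 95% interval to either side was 0.174 over the members, and for 40 of 50 the whole interval lay within 0.5 of 0 on the log2 scale.

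In WDR77KO against sgNeg, 0 of 50 members were called by limma voom, beside 3.39% of all genes tested. There were 3 members at an unadjusted p under 0.05, beside 16.2% of all genes, and limma-trend called 0. The median log2 fold change was 0.026 over the members, or 0.008 without sgWDR77-1 replicate 1, and 0.003 over all genes, and 28 members were positive. Without sgWDR77-1 replicate 1, 1 member was called, SNRPF, which was lower, beside 4.79% of all genes. The smallest adjusted p of any member with all libraries was 0.0589, again for SNRPF. PRMT5KO and WDR77KO share their control libraries, so their values are set side by side only.

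**Figure D2:**
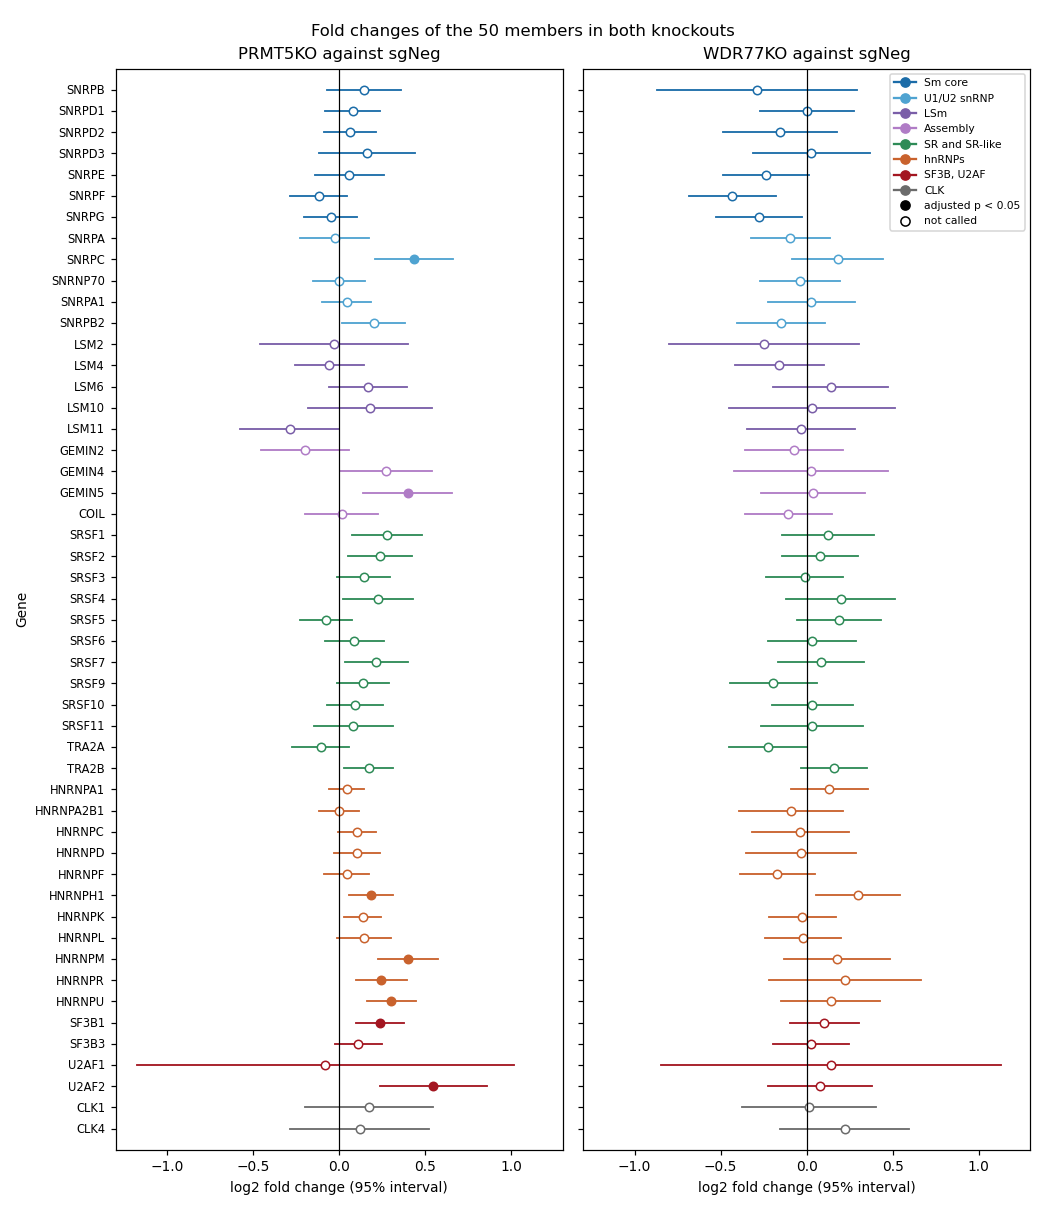
Log2 fold change of each of the 50 members against sgNeg in PRMT5KO and in WDR77KO (6 libraries each against 3), with 95% intervals; filled points have an adjusted p under 0.05. In PRMT5KO 8 members are filled, all to the right of 0, and in WDR77KO none is.

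Each sgRNA was also compared with sgNeg alone, to see whether it showed the pooled change. sgPRMT5-1 had 1 member called, HNRNPM, which was higher, beside 3.76% of all genes called and 1.52% called higher. Without sgNeg replicate 3, 3 members were called, HNRNPM among them, beside 3.6% of all genes. Without sgNeg replicate 1 or 2, or without any of the sgPRMT5-1 replicates, the count was 0 by limma voom, with 3, 5, 6, 7 and 4 members in turn at an unadjusted p under 0.05. All genes called were then 1.71%, 2.66%, 3.14%, 1.49% and 2.09% in turn. sgPRMT5-2 had 17 members called, all higher, which is 34% of members beside 40.1% of all genes, of which 20.9% were higher and 19.3% lower. At an unadjusted p under 0.05 there were 23 members, beside 48% of all genes. The members called lower numbered 0 by limma voom, but not under every alternative. limma-trend called 17 higher and 1 lower, SNRPF, beside 40.3% of all genes. So did limma voom with RLE scaling or a mean count of at least 10, beside 40.5% and 45.6%. Library totals alone gave 11 higher and 3 lower, SNRPF, LSM4 and LSM11, beside 40.9%. Without sgNeg replicate 2 there were 18 higher and 1 lower, LSM4, beside 40.3%. LSM4 was named after its values were seen. The 17 were 1 of 7 Sm core genes, 2 of 5 U1 and U2 genes, 0 of 5 LSm genes, 2 of 4 assembly factors, 6 of 12 SR genes, 4 of 11 hnRNPs, 2 of 4 SF3B and U2AF genes and 0 of 2 CLK kinases. Of the 17, 14 were called in all 6 fits that left out a single library, SNRPB was lost without sgNeg replicate 2, and SRSF1 and SRSF4 were lost without sgNeg replicate 1. The median log2 fold change of the members was 0.060 in sgPRMT5-1 and 0.158 in sgPRMT5-2, beside 0.004 and 0.001 for all genes.

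sgWDR77-1 had 0 members called by limma voom, beside 2.71% of all genes, with 9 at an unadjusted p under 0.05, beside 17.7% of all genes, and 0 called by limma-trend. Without its replicate 1, 5 members were called and all were lower, beside 7.01% of all genes. These were the Sm genes SNRPF (log2 fold change −0.65, adjusted p 0.00101) and SNRPG (−0.48, adjusted p 0.0111) and the hnRNP genes HNRNPF (−0.33, adjusted p 0.0351), HNRNPC (−0.31, adjusted p 0.0403) and HNRNPA2B1 (−0.31, adjusted p 0.0471), of which SNRPG was singled out after its values were seen. The 5 calls rest on replicates 2 and 3, which had the highest shares of reads outside genes (6.04% and 5.70%) and of mitochondrial counts (2.26% and 2.11%) of all knockout libraries, and the part of these shares was not tested. sgWDR77-2 had 1 member called, SNRPF, which was lower, beside 4.97% of all genes called and 3.08% called lower. It was called without sgWDR77-2 replicate 1. Without any of the sgNeg replicates, or without sgWDR77-2 replicate 2 or 3, the count was 0 by limma voom, with 5, 4, 10, 4 and 12 members in turn at an unadjusted p under 0.05. All genes called were then 3.1%, 3.09%, 3.2%, 2.08% and 3.83% in turn.

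**Figure D3:**
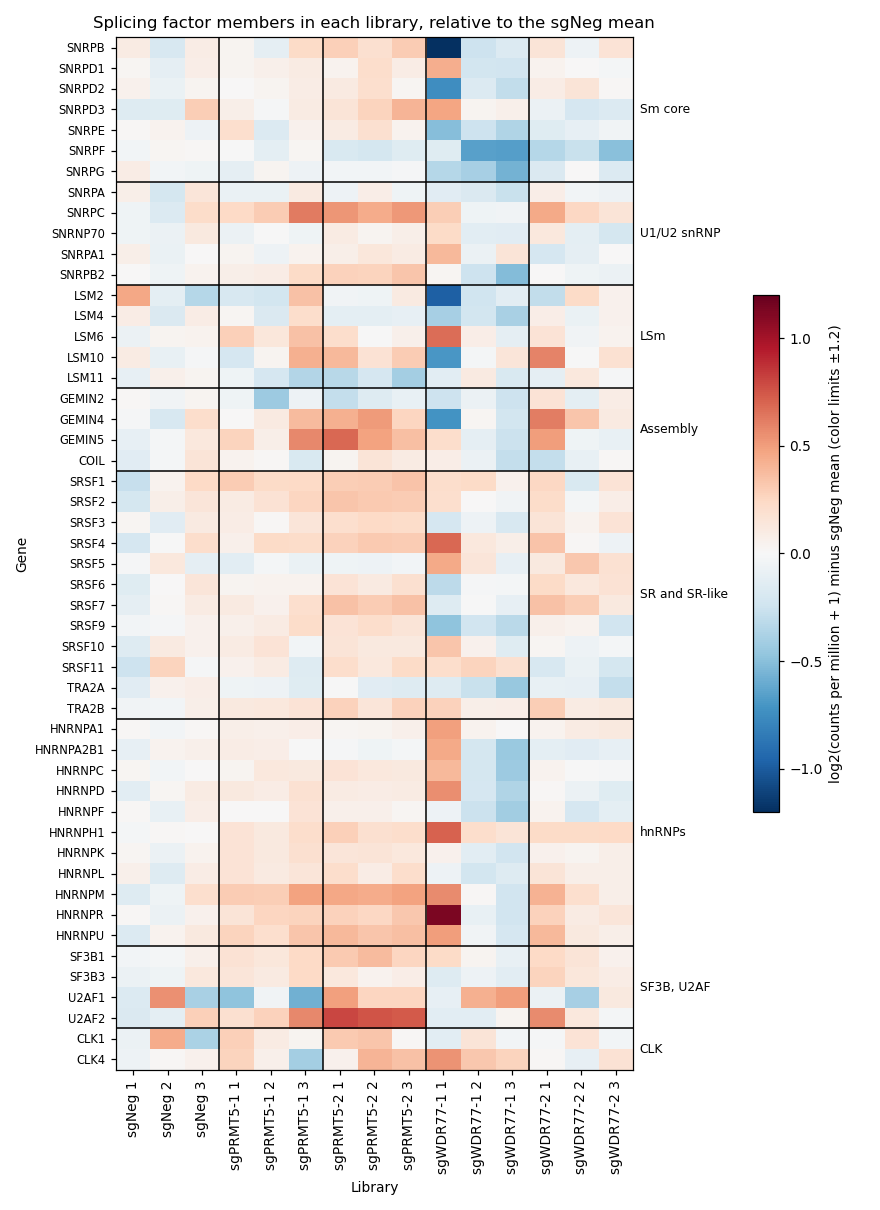
Log2(CPM + 1) of the 50 members in each of the 15 libraries minus the sgNeg mean, with members grouped by role and color limits at 1.2 to either side of 0. The column of sgWDR77-1 replicate 1 has the strongest colors, from −1.58 for SNRPB to 1.13 for HNRNPR.

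The Sm core forms the ring around snRNA, and it is where the methylosome acts. SNRPB (ENSG00000125835.19), which encodes SmB and holds the widely spaced pairs printed above, stood at 178, 146 and 177 CPM in sgNeg, at 170, 154 and 196 in sgPRMT5-1, and at 203, 190 and 206 in sgPRMT5-2. Only the sgPRMT5-2 libraries all lay above sgNeg, and the pooled log2 fold change of 0.15 (95% interval −0.069 to 0.359, adjusted p 0.328), or 0.05 to 0.19 over the 9 fits that left out a library, was not called. sgPRMT5-2 alone was called higher, with a log2 fold change of 0.26 (SE 0.080, adjusted p 0.0145) in 3 of 3 libraries, and sgPRMT5-1 was not (0.04, adjusted p 0.882). The sgPRMT5-2 call was lost without sgNeg replicate 2, with library totals alone and with all 15 libraries in 1 fit. In the WDR77 groups SNRPB stood at 55.0, 140 and 149 CPM in sgWDR77-1 and at 186, 159 and 187 in sgWDR77-2. The value of 55.0 is far below the rest, and with it the WDR77KO log2 fold change was −0.29 (SE 0.274, adjusted p 0.674), while without that library it was −0.02 (adjusted p 0.965). SNRPB was not called in sgWDR77-1, at −0.64 (adjusted p 0.252) with that library and −0.19 (adjusted p 0.288) without it, or in sgWDR77-2 (0.08, adjusted p 0.698).

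SNRPD1 (ENSG00000167088.11), which encodes SmD1, stood at 119, 108 and 124 CPM in sgNeg, at 119, 122 and 126 in sgPRMT5-1, and at 120, 135 and 125 in sgPRMT5-2. The groups overlapped, and the PRMT5KO log2 fold change was 0.08 (SE 0.074, adjusted p 0.497). In sgWDR77-1 SNRPD1 stood at 158, 100 and 99.4 CPM, and in sgWDR77-2 at 120, 117 and 115. Here sgWDR77-1 replicate 1 was the highest of the 15 libraries, opposite to its place for SNRPB, and the WDR77KO log2 fold change was 0.00 (SE 0.128, adjusted p 0.998) with it and −0.07 without it. SNRPD1 was not called for any sgRNA alone, where the log2 fold change of sgPRMT5-1 was 0.05, that of sgPRMT5-2 0.11, that of sgWDR77-1 0.03 and that of sgWDR77-2 −0.001. Without its replicate 1 that of sgWDR77-1 was −0.21 (adjusted p 0.216). SNRPD3 (ENSG00000100028.12), which encodes SmD3, stood at 25.9, 26.0 and 35.7 CPM in sgNeg, at 30.4, 28.5 and 31.0 in sgPRMT5-1, and at 32.3, 34.8 and 38.7 in sgPRMT5-2. The third sgNeg library lay above most knockout libraries, and the PRMT5KO log2 fold change of 0.16 (SE 0.131, adjusted p 0.414), or 0.07 to 0.28 over the 9 fits that left out a library, was not called. In sgWDR77-1 SNRPD3 stood at 40.5, 29.6 and 30.1 CPM, and in sgWDR77-2 at 27.5, 24.9 and 25.7. sgWDR77-1 replicate 1 was again the highest library, and the WDR77KO log2 fold change was 0.03 (SE 0.160, adjusted p 0.964) with it and −0.05 without it. For SNRPD3 the log2 fold change of sgPRMT5-1 was 0.04, that of sgPRMT5-2 0.28, that of sgWDR77-1 0.23 (0.07 without its replicate 1) and that of sgWDR77-2 −0.15, none of them called. Without sgNeg replicate 3, sgPRMT5-2 alone was called higher for SNRPD3, 1 of 21 members called there beside 38.4% of all genes.

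SNRPF (ENSG00000139343.10), whose protein SmF is in the ring with SmE and SmG and has no methylated tail, had the largest WDR77KO change of the Sm core. It stood at 94.3, 98.0 and 97.2 CPM in sgNeg, at 87.0, 61.1 and 60.6 in sgWDR77-1, and at 75.9, 80.2 and 67.7 in sgWDR77-2. All 6 WDR77KO libraries lay below all 3 sgNeg libraries, with the lowest values in sgWDR77-1 replicates 2 and 3. The pooled log2 fold change of −0.43 (SE 0.119, fold 0.741, adjusted p 0.0589) missed the threshold, and without sgWDR77-1 replicate 1 it was −0.48 (SE 0.101, adjusted p 0.0136) and was called. It was also called with library totals alone (adjusted p 0.0361) and with all 15 libraries in 1 fit (adjusted p 0.00695). sgWDR77-2 alone was called lower (−0.38, SE 0.096, adjusted p 0.0334) in 3 of 3 libraries, while sgWDR77-1 alone was not with its 3 libraries (−0.46, adjusted p 0.122). The sgWDR77-2 call was lost with the replicate block and with all 15 libraries in 1 fit, and 1 of the 6 fits that left out a library kept it. In sgWDR77-1 SNRPF was called with all 15 libraries in 1 fit, among 7 members called there, 6 lower and 1 higher, beside 9.48% of all genes. The others in that fit were the Sm genes SNRPD2, SNRPE and SNRPG, and LSM4, SRSF9 and HNRNPH1. In the PRMT5 groups SNRPF stood at 95.9, 89.0 and 98.3 CPM in sgPRMT5-1 and at 84.7, 83.3 and 87.0 in sgPRMT5-2. sgPRMT5-2 lay below every sgNeg library, yet neither PRMT5KO (−0.12, adjusted p 0.289) nor sgPRMT5-2 alone (−0.19, adjusted p 0.0500296) was called. sgPRMT5-2 alone was called lower for SNRPF with RLE scaling, library totals alone, a mean count of at least 10 and limma-trend.

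Over the 7 Sm core genes the median log2 fold change in PRMT5KO was 0.063 with 5 positive, and with library totals alone it was 0. In WDR77KO it was −0.237 with 5 negative, and it stayed between −0.253 and −0.209 under the 4 scalings. Without sgWDR77-1 replicate 1 all 7 were negative with a median of −0.071, so most of the size of the median rested on that library. SNRPD2 and SNRPG, ring genes whose values are not given in full, lay within the range of −0.43 to 0.03 that the 7 spanned in WDR77KO. With all 15 libraries in 1 fit, SNRPG was called lower in WDR77KO together with SNRPF, beside 8.44% of all genes. Summed over the 7 genes, the level was 722, 664 and 725 CPM in sgNeg, 712, 686 and 751 in sgPRMT5-1, 748, 765 and 753 in sgPRMT5-2, 539, 577 and 562 in sgWDR77-1, and 696, 687 and 679 in sgWDR77-2. The sum in sgWDR77-1 lay below every other library in all 3 replicates, and that in sgPRMT5-2 lay above every sgNeg library. The sum is a description with no test of its own.

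Among the U1 and U2 proteins, SNRPC (ENSG00000124562.10) encodes the U1 protein that helps the U1 snRNP hold the 5′ splice site. SNRPC stood at 86.2, 79.5 and 104 CPM in sgNeg, at 106, 111 and 138 in sgPRMT5-1, and at 130, 122 and 129 in sgPRMT5-2. All 6 PRMT5KO libraries lay above all 3 sgNeg libraries, and SNRPC rose with a log2 fold change of 0.44 (SE 0.106, adjusted p 0.0160). The call was lost without sgNeg replicate 1 (adjusted p 0.0843) and without sgNeg replicate 2 (adjusted p 0.0941), and over the 9 fits the log2 fold change ran from 0.36 to 0.52. sgPRMT5-2 alone was called (0.50, adjusted p 0.000153) and sgPRMT5-1 alone was not (0.38, adjusted p 0.0859). With WDR77 targeted, SNRPC stood at 110, 86.3 and 86.7 CPM in sgWDR77-1 and at 123, 106 and 99.7 in sgWDR77-2. These overlapped the control, and the WDR77KO log2 fold change of 0.18 (adjusted p 0.53) was not called. SNRPB2 (ENSG00000125870.11), which encodes a protein that binds U2 snRNA, stood at 73.7, 70.7 and 75.3 CPM in sgNeg, at 76.8, 77.7 and 86.1 in sgPRMT5-1, and at 88.6, 88.2 and 92.7 in sgPRMT5-2. Each of the 6 PRMT5KO libraries lay above sgNeg by a small margin, and the pooled log2 fold change of 0.20 (SE 0.085, adjusted p 0.114) was not called, though sgPRMT5-2 alone was (0.29, adjusted p 0.00598). The other 3 genes, SNRPA and SNRNP70 of U1 and SNRPA1 of U2, lay between −0.03 and 0.04 in PRMT5KO. The role group's median was 0.042 in PRMT5KO, and it became −0.022 with library totals alone.

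LSm proteins are relatives of the Sm proteins, found on U6 and U7 snRNA among other RNAs, and none of the 5 was called in either knockout, with log2 fold changes from −0.29 to 0.18 in PRMT5KO and from −0.25 to 0.14 in WDR77KO. LSM11 (ENSG00000155858.6) stood at 12.9, 14.5 and 14.1 CPM in sgNeg, at 13.3, 11.9 and 10.6 in sgPRMT5-1, and at 10.7, 11.9 and 10.2 in sgPRMT5-2. Of the 6 PRMT5KO libraries 5 lay below all 3 sgNeg libraries, and the log2 fold change of −0.29 (SE 0.135) had an unadjusted p of 0.0497 and an adjusted p of 0.148. LSM2, a subunit of the ring on U6, stood at 14.7, 9.53 and 7.98 CPM in sgNeg, at 4.80, 8.70 and 9.49 in sgWDR77-1, and at 8.28, 12.4 and 10.8 in sgWDR77-2. Its sgNeg libraries differed as widely as the groups did, and the WDR77KO log2 fold change of −0.25 (SE 0.261, adjusted p 0.711) was not called, and it was −0.07 without sgWDR77-1 replicate 1. The role group's median in PRMT5KO was −0.029, and it became 0.007 with upper quartile scaling.

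Assembly factors load the ring onto snRNA or mark the nuclear body where snRNPs mature. GEMIN5 (ENSG00000082516.9), the subunit of the SMN complex that recognizes snRNA, stood at 73.7, 77.2 and 85.8 CPM in sgNeg, at 95.2, 82.7 and 118 in sgPRMT5-1, and at 127, 110 and 101 in sgPRMT5-2. Of the 6 PRMT5KO libraries 5 lay above all of sgNeg and 6 above its mean, and GEMIN5 rose with a log2 fold change of 0.40 (SE 0.121, adjusted p 0.0373). It was called in only 2 of the 9 fits that left out a library, those without sgPRMT5-1 replicate 1 or replicate 2, with log2 fold changes from 0.34 to 0.46 over the 9. It was also not called with library totals alone (adjusted p 0.0637) or the replicate block (adjusted p 0.0572). sgPRMT5-2 alone was called (0.51, adjusted p 0.00016). In the WDR77 groups GEMIN5 stood at 91.1, 73.1 and 65.7 CPM in sgWDR77-1 and at 112, 75.8 and 74.2 in sgWDR77-2. The first replicate was the highest in both groups, and the pooled log2 fold change was 0.04 (adjusted p 0.945), or 0.02 without sgWDR77-1 replicate 1. COIL, which encodes coilin of the Cajal body, stood between 40.5 and 52.5 CPM in WDR77KO with a median of 46.9, and its sgNeg libraries stood at 45.0, 49.0 and 55.5. The groups overlapped, and the WDR77KO log2 fold change was −0.11 (SE 0.118, adjusted p 0.73). GEMIN2, named after its values were seen, lay below every sgNeg library in 6 of 6 PRMT5KO libraries and was not called (log2 fold change −0.2). The role group's median in PRMT5KO was 0.144 with 3 of 4 positive, or 0.08 with 2 positive with library totals alone. The role group's median in WDR77KO was −0.024, and it became 0.005 with upper quartile scaling.

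SR proteins bind exons and promote use of nearby splice sites, and TRA2A and TRA2B are SR-like activators. None of the 12 was called in PRMT5KO, 10 had a positive log2 fold change under each of the 4 scalings, and the median was 0.139. SRSF1 (ENSG00000136450.13) stood at 87.0, 109 and 125 CPM in sgNeg, at 131, 125 and 125 in sgPRMT5-1, and at 130, 131 and 134 in sgPRMT5-2. Of the 6 PRMT5KO libraries, 5 lay above all 3 sgNeg libraries and 6 above their mean, and the log2 fold change of 0.28 (SE 0.096, adjusted p 0.0587) missed the threshold. It was called without sgNeg replicate 3 (adjusted p 0.0362), with upper quartile scaling (adjusted p 0.0369) and with all 15 libraries in 1 fit (adjusted p 0.0456). Over the 9 fits that left out a library the SRSF1 log2 fold change ran from 0.125, without sgNeg replicate 1 (adjusted p 0.34), to 0.37. sgPRMT5-2 alone was called for SRSF1 (0.31, adjusted p 0.0149), and this call was lost without sgNeg replicate 1 and with library totals alone. SRSF7 (ENSG00000115875.19), an SR protein with a zinc knuckle, stood at 163, 176 and 187 CPM in sgNeg, at 188, 181 and 201 in sgPRMT5-1, and at 223, 217 and 223 in sgPRMT5-2. The sgPRMT5-2 libraries lay above all of sgNeg and sgPRMT5-1, and sgPRMT5-2 alone was called (0.33, SE 0.070, adjusted p 0.000872). PRMT5KO was not called for SRSF7 (0.21, adjusted p 0.0941), though it was without sgPRMT5-1 replicate 1 (adjusted p 0.048) or replicate 2 (adjusted p 0.0459) and with all 15 libraries in 1 fit (adjusted p 0.0366). Also called higher in sgPRMT5-2 alone were SRSF2, SRSF3, SRSF4 and TRA2B, named here after their values were seen, with log2 fold changes from 0.22 to 0.31, each above the sgNeg mean in 3 of 3 libraries. SRSF3, SRSF4 and TRA2B were not called there with library totals alone, nor was SRSF4 with all 15 libraries in 1 fit. In WDR77KO the 12 ran from −0.22 to 0.20 with a median of 0.055, or 0.09 without sgWDR77-1 replicate 1, and TRA2A was the farthest from 0. TRA2A stood at 76.2, 86.8 and 88.7 CPM in sgNeg, at 75.2, 69.6 and 60.9 in sgWDR77-1, and at 78.8, 77.9 and 68.6 in sgWDR77-2. Of these 6 libraries 4 lay below every sgNeg library, and the log2 fold change of −0.22 (SE 0.107, adjusted p 0.315) was not called.

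The hnRNPs gave 4 of the 8 members called in PRMT5KO, and 10 of the 11 had a positive log2 fold change, or 8 with library totals alone and 11 with upper quartile scaling. HNRNPM (ENSG00000099783.12), at chr19:8444767-8489114, encodes a regulator of alternative exons and had the smallest adjusted p of any member. It stood at 308, 331 and 395 CPM in sgNeg, at 425, 419 and 479 in sgPRMT5-1, and at 473, 466 and 481 in sgPRMT5-2. All 6 PRMT5KO libraries lay above all 3 sgNeg libraries, and HNRNPM rose with a log2 fold change of 0.40 (SE 0.082, fold 1.32, adjusted p 0.00805). It was lost only without sgNeg replicate 1 (adjusted p 0.0616), and the 9 fits gave log2 fold changes from 0.31 to 0.48. Each sgRNA alone was called for HNRNPM, at 0.35 in sgPRMT5-1 (adjusted p 0.0466) and 0.46 in sgPRMT5-2 (adjusted p 8.28e-05). The sgPRMT5-1 call was lost in 5 of the 6 fits that left out a library, with library totals alone and with all 15 libraries in 1 fit. SNRPC, HNRNPU and U2AF2 were also called for each sgRNA alone with the replicate block or with no filter beyond 1 read, and GEMIN5 with the replicate block. With WDR77 targeted, HNRNPM stood at 507, 347 and 292 CPM in sgWDR77-1 and at 458, 395 and 359 in sgWDR77-2. These spanned the control from below to above, and the log2 fold change of 0.18 (adjusted p 0.614), or 0.11 without sgWDR77-1 replicate 1, was not called.

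HNRNPU (ENSG00000153187.20), a scaffold protein of nuclear RNA, stood at 954, 1100 and 1159 CPM in sgNeg, at 1283, 1229 and 1348 in sgPRMT5-1, and at 1398, 1344 and 1369 in sgPRMT5-2. Each of the 6 PRMT5KO libraries lay above sgNeg, and HNRNPU rose with a log2 fold change of 0.30 (SE 0.066, adjusted p 0.0108), lost only without sgNeg replicate 1 (adjusted p 0.0734). In the WDR77 groups HNRNPU stood at 1515, 1034 and 927 CPM in sgWDR77-1 and at 1398, 1156 and 1117 in sgWDR77-2. The first replicates were the highest, and the log2 fold change of 0.14, or 0.08 without sgWDR77-1 replicate 1, was not called. HNRNPR (ENSG00000125944.21), an RNA-binding protein close to SYNCRIP, stood at 119, 112 and 121 CPM in sgNeg, at 130, 140 and 141 in sgPRMT5-1, and at 142, 139 and 147 in sgPRMT5-2. All 6 PRMT5KO libraries lay above sgNeg, and HNRNPR rose with a log2 fold change of 0.24 (SE 0.070, adjusted p 0.0308). HNRNPR was not called with library totals alone (adjusted p 0.0738), no filter beyond 1 read (0.051) or all 15 libraries in 1 fit (0.316). With WDR77 targeted, HNRNPR stood at 257, 110 and 100 CPM in sgWDR77-1 and at 142, 126 and 130 in sgWDR77-2. The value of 257 lies far above the other 5, and the WDR77KO log2 fold change of 0.23 had a wide error (SE 0.209, adjusted p 0.663), against 0.06 (SE 0.104, adjusted p 0.828) without that library. HNRNPH1 (ENSG00000169045.17), which binds runs of G, stood at 245, 251 and 250 CPM in sgNeg, at 279, 269 and 288 in sgPRMT5-1, and at 304, 283 and 288 in sgPRMT5-2. Each of the 6 PRMT5KO libraries lay above sgNeg, and HNRNPH1 rose with a log2 fold change of 0.18 (SE 0.060, fold 1.14, adjusted p 0.0499983), just inside the threshold. HNRNPH1 was not called with RLE scaling (adjusted p 0.0587), library totals alone (0.161), no filter beyond 1 read (0.0521), limma-trend (0.0513), the replicate block (0.0799) or all 15 libraries in 1 fit (0.133). Like GEMIN5, both HNRNPR and HNRNPH1 were called only without sgPRMT5-1 replicate 1 or replicate 2 among the 9 fits, with log2 fold changes from 0.21 to 0.27 and from 0.16 to 0.19.

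In WDR77KO, HNRNPH1 had the largest log2 fold change of the hnRNPs in size. It stood at 407, 288 and 276 CPM in sgWDR77-1 and at 293, 291 and 294 in sgWDR77-2. All 6 libraries lay above all 3 sgNeg libraries, and the log2 fold change of 0.30 (SE 0.115, adjusted p 0.197) was not called, nor was the 0.23 (SE 0.069, adjusted p 0.0765) without sgWDR77-1 replicate 1. The 5 hnRNPs with the highest level per kilobase in sgNeg had small differences in PRMT5KO. Their log2 fold changes were 0.00 for HNRNPA2B1, 0.04 for HNRNPA1 and HNRNPF, 0.10 for HNRNPC and 0.14 for HNRNPK, none of them called. HNRNPK was called with upper quartile scaling (adjusted p 0.0216) and with no filter beyond 1 read (adjusted p 0.0221). Summed over the 11 genes, the level was 6693, 6881 and 7246 CPM in sgNeg, 7589, 7521 and 7781 in sgPRMT5-1, 7734, 7593 and 7673 in sgPRMT5-2, 9264, 6431 and 5800 in sgWDR77-1, and 7440, 7007 and 7003 in sgWDR77-2. All 6 PRMT5KO sums lay above sgNeg, and sgWDR77-1 held both the highest and the lowest sum of all libraries. The median of the 11 genes in WDR77KO was −0.021, and it became 0.006 with upper quartile scaling and 0 without sgWDR77-1 replicate 1.

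SF3B1 and U2AF2 act where the branch point and the 3′ splice site are recognized. U2AF2 (ENSG00000063244.13), at chr19:55654146-55674716, encodes the large U2AF subunit, which binds the polypyrimidine tract. It stood at 176, 183 and 243 CPM in sgNeg, at 227, 242 and 296 in sgPRMT5-1, and at 348, 337 and 332 in sgPRMT5-2. The 4 highest libraries were above every sgNeg library, and 2 sgPRMT5-1 libraries lay below the third sgNeg library but above the sgNeg mean of 201. U2AF2 rose in PRMT5KO with a log2 fold change of 0.55 (SE 0.145, fold 1.46, adjusted p 0.0232), the largest of the 50 members. It was lost without sgNeg replicate 1 (adjusted p 0.131) and without sgNeg replicate 2 (adjusted p 0.108), and the 9 fits ran from 0.45 to 0.66. sgPRMT5-2 alone gave 0.77 (SE 0.090, adjusted p 1.5e-06), and sgPRMT5-1 alone gave 0.33 and was not called (adjusted p 0.13). In the WDR77 groups U2AF2 stood at 182, 181 and 204 CPM in sgWDR77-1 and at 295, 217 and 196 in sgWDR77-2. Only sgWDR77-2 replicate 1 lay above the control range, and the log2 fold change of 0.08 (adjusted p 0.857), or 0.13 without sgWDR77-1 replicate 1, was not called.

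SF3B1 (ENSG00000115524.17), the largest subunit of the U2-bound SF3B complex, stood at 412, 415 and 440 CPM in sgNeg, at 477, 464 and 500 in sgPRMT5-1, and at 524, 548 and 505 in sgPRMT5-2. All 6 PRMT5KO libraries lay above sgNeg, and SF3B1 rose with a log2 fold change of 0.24 (SE 0.065, adjusted p 0.0262). It was called in 2 of the 9 fits, without sgPRMT5-1 replicate 1 or replicate 2, and the 9 fits ran from 0.20 to 0.26. SF3B1 was also not called with library totals alone (adjusted p 0.0627). U2AF1 had under 3 CPM in every library, with 1.02, 2.30 and 0.726 in sgNeg, 0.611, 1.19 and 0.514 in sgPRMT5-1, and 2.18, 1.70 and 1.69 in sgPRMT5-2. Its replicates differed several-fold within sgNeg, and neither PRMT5KO (−0.08, or −0.42 to 0.38 over the 9 fits) nor WDR77KO (0.14) was called. The CLK kinases were low and not called. CLK1 stood between 14.4 and 18.2 CPM in PRMT5KO and at 13.5, 19.7 and 10.7 in sgNeg, with a log2 fold change of 0.17, or −0.05 to 0.42 over the 9 fits that left out a library. CLK4 stood between 10.2 and 16.4 CPM in WDR77KO and at 10.5, 11.2 and 11.4 in sgNeg, and its log2 fold change was 0.22 (adjusted p 0.604). Both ranges overlapped the control.

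**Figure D4:**
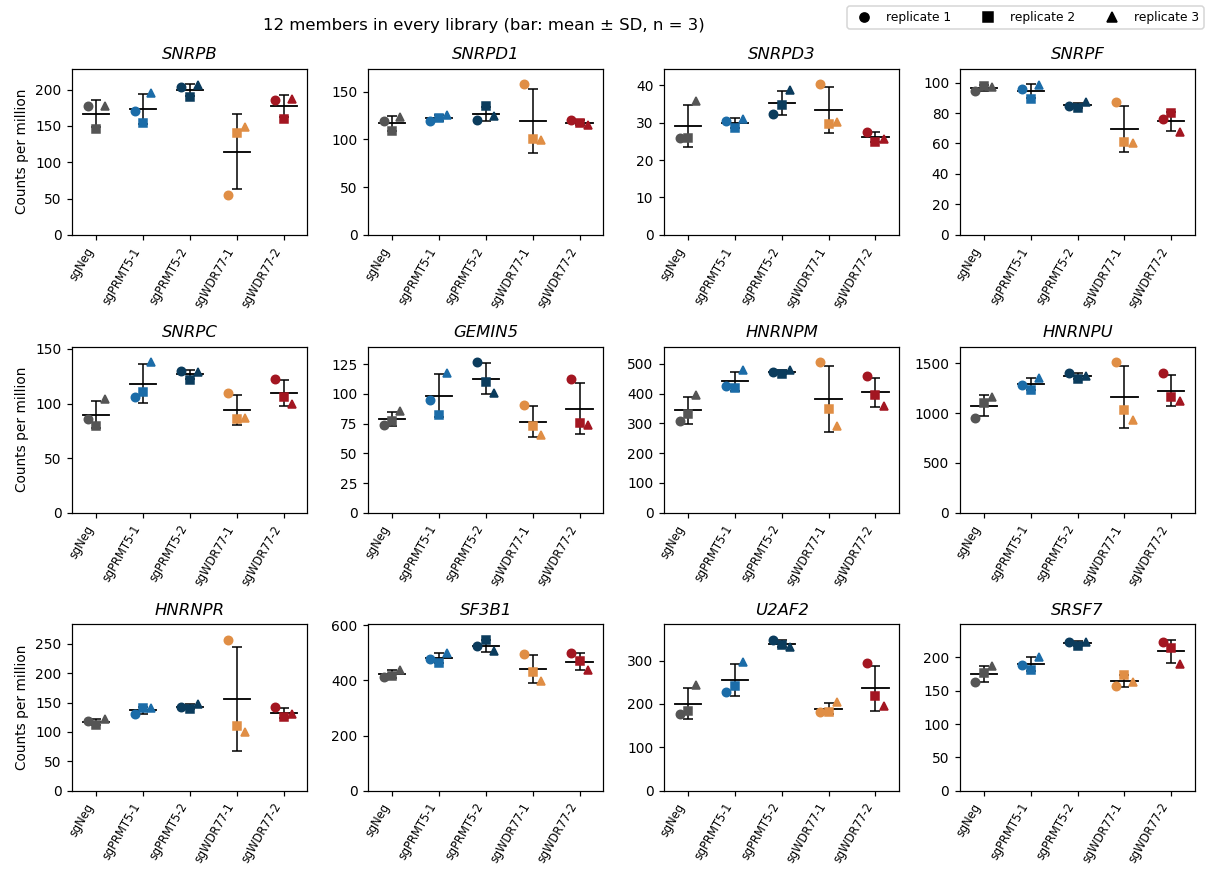
CPM of 12 members in each of the 5 groups, with points for libraries and the mean with its SD (n = 3). U2AF2 is highest in sgPRMT5-2, between 332 and 348, and SNRPF in the WDR77 groups lies below the 3 sgNeg libraries.

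The sgRNAs of a gene were then compared with each other, which involves no control library. In sgPRMT5-2 against sgPRMT5-1, 2 members were called, both higher, beside 19.2% of all genes called and 9.94% called higher. The members' share was 4%, and its difference from the share of all genes was not tested. At an unadjusted p under 0.05 there were 12 members, beside 32.9% of all genes. U2AF2 was higher in sgPRMT5-2 by a log2 fold change of 0.43 (SE 0.078, adjusted p 0.000602), with all 3 sgPRMT5-2 libraries above all 3 of sgPRMT5-1, and it was called in all 6 fits that left out a library. With all 15 libraries in 1 fit neither U2AF2 nor any other member was called by limma voom, beside 7.53% of all genes. SRSF7 was higher by 0.22 (SE 0.066, adjusted p 0.0209), again with no overlap, but it was called in only 1 of the 6 fits, that without sgPRMT5-1 replicate 3, where 13 members were called, 12 of them higher, beside 33.6% of all genes. With no filter beyond 1 read 8 members were called, 7 higher and 1 lower, beside 10.5% of all genes. Without sgPRMT5-1 replicate 2, U2AF2 and SRSF11 were called, beside 12% of all genes. Without sgPRMT5-1 replicate 1 or any sgPRMT5-2 replicate only U2AF2 was, beside 10.3%, 10.5%, 10.9% and 11.5% in turn. The next members by adjusted p were SRSF11, an SR-like protein (0.20, adjusted p 0.0522), SNRPB (0.22, adjusted p 0.0566) and U2AF1 (1.28, SE 0.468, adjusted p 0.0608), none of them called. SNRPB was called with no filter beyond 1 read, with the replicate block and without sgPRMT5-1 replicate 3, and SRSF11 with no filter beyond 1 read, a mean count of at least 10 and the replicate block. SNRPD1 (0.05, adjusted p 0.66) and SNRPD3 (0.24, adjusted p 0.144) were not called either. In sgWDR77-2 against sgWDR77-1, 0 members were called by limma voom, beside 0.121% of all genes, with 12 at an unadjusted p under 0.05, beside 12.5% of all genes, and 0 by limma-trend. Among the tail-methylated Sm genes the log2 fold changes were 0.74 for SNRPB (adjusted p 0.316), −0.36 for SNRPD3 (adjusted p 0.398) and −0.002 for SNRPD1. Without sgWDR77-1 replicate 1 they were 0.27 for SNRPB, −0.22 for SNRPD3 and 0.21 for SNRPD1, again not called. In the same fit, 1 member was called beside 1.11% of all genes, SRSF11, which was lower in sgWDR77-2 (−0.42, adjusted p 0.0384). SRSF11 stood at 262, 274 and 260 CPM in sgWDR77-1 and at 198, 214 and 196 in sgWDR77-2, with no overlap.

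PRMT5KO was tested directly against WDR77KO, 6 libraries against 6 and without sgNeg, to ask where the knockouts differ. In this comparison 5 members were called, all higher in PRMT5KO, which is 10% of members beside 14.0% of all genes, of which 7.99% were higher. SRSF5, an SR protein named after its values were seen, was at −0.25 and not called, but it was called lower in PRMT5KO under 4 alternatives. With RLE scaling there were 4 higher and 1 lower, beside 13.8% of all genes, and with library totals alone 3 higher and 1 lower, beside 13.5%. With a mean count of at least 10 there were 6 higher and 1 lower, beside 16.3%. With all 15 libraries in 1 fit there were 14 higher and 1 lower, beside 27.1%. There were 17 members at an unadjusted p under 0.05, beside 31.7% of all genes, limma-trend called 5, and the median log2 fold change was 0.147 over the members and 0.018 over all genes. SRSF9, an SR protein, ran from 122 to 136 CPM in PRMT5KO with a median of 130, and from 83.1 to 122 in WDR77KO with a median of 99.5. The ranges nearly met, at 122 in each, but did not overlap, and the log2 fold change was 0.35 (SE 0.091, adjusted p 0.0190). U2AF2 ran from 227 to 348 CPM in PRMT5KO with a median of 314, and from 181 to 295 in WDR77KO with a median of 200. The ranges overlapped only through sgWDR77-2 replicate 1 at 295, and the log2 fold change was 0.48 (SE 0.126, adjusted p 0.0190). SNRPB2 ran from 76.8 to 92.7 CPM in PRMT5KO and from 50.5 to 74.3 in WDR77KO, with medians of 87.2 and 70.0. The ranges did not overlap, and the log2 fold change was 0.36 (SE 0.096, adjusted p 0.0209).

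The other 2 called members belong to the Sm core. SNRPF ran from 83.3 to 98.3 CPM in PRMT5KO with a median of 88.0 and from 60.6 to 87.0 in WDR77KO with a median of 71.8. Only sgWDR77-1 replicate 1 reached into the PRMT5KO range, and the log2 fold change was 0.33 (SE 0.095, adjusted p 0.0305). SNRPE (ENSG00000182004.13), a ring protein without a methylated tail, ran from 52.6 to 68.3 CPM in PRMT5KO with a median of 62.4 and from 41.2 to 57.6 in WDR77KO with a median of 51.5. The ranges overlapped between 52.6 and 57.6, and the log2 fold change was 0.31 (SE 0.097, adjusted p 0.0395). SNRPE was not called with RLE scaling, library totals alone, no filter beyond 1 read or the replicate block, and SNRPF was not with library totals alone. The 3 tail-methylated Sm genes were not called between the knockouts, at 0.45 for SNRPB (adjusted p 0.153), 0.09 for SNRPD1 (adjusted p 0.56) and 0.15 for SNRPD3 (adjusted p 0.415). Without sgWDR77-1 replicate 1 they were 0.18 for SNRPB, 0.17 for SNRPD1 and 0.23 for SNRPD3, again not called. SNRPB was called higher in PRMT5KO with all 15 libraries in 1 fit, 1 of 15 members called there beside 27.1% of all genes. All 7 Sm core genes had a positive log2 fold change in this comparison.

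The count between the knockouts depended on the libraries. Without sgWDR77-1 replicate 1, 12 members were called, all higher in PRMT5KO, beside 13.5% of all genes. SNRPF was then at 0.38 (adjusted p 0.00977), SNRPB2 at 0.39 (adjusted p 0.0145), SRSF9 at 0.28 (adjusted p 0.0259) and U2AF2 at 0.44 (adjusted p 0.0377), while SNRPE was no longer called (adjusted p 0.0619). The 8 others were GEMIN5 and the hnRNP genes HNRNPA2B1, HNRNPC, HNRNPD, HNRNPF, HNRNPK, HNRNPM and HNRNPU, of which HNRNPD was named after its values were seen. In this fit sgWDR77-1 is left with replicates 2 and 3, with their 6.04% and 5.70% of reads outside genes and 2.26% and 2.11% of mitochondrial counts, and the part of these shares was not tested. Without sgWDR77-1 replicate 2 the count was 0 by limma voom, with 8 at an unadjusted p under 0.05, and without replicate 3 it was 2, beside 6.93% and 8.08% of all genes. Without sgPRMT5-2 replicate 1, 2 or 3 the count was 0 each time by limma voom, with 11, 12 and 11 at an unadjusted p under 0.05, beside 6.26%, 6.46% and 6.97% of all genes called. Without sgPRMT5-1 replicate 1, 2 or 3 it was 5, 7 and 3, beside 18.3%, 17.1% and 9.26% of all genes, and without sgWDR77-2 replicate 1, 2 or 3 it was 9, 5 and 3, beside 22.6%, 10.1% and 9.54%. SRSF5 was the 1 member called lower without sgPRMT5-1 replicate 2, sgWDR77-1 replicate 3 or sgWDR77-2 replicate 1. Over these 12 fits U2AF2 was called in 8, SNRPB2 in 7, SRSF9 in 6, SNRPF in 4 and SNRPE in 3.

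Other genes of the splicing pathway were read from 10 lists of 115 genes, 113 of them tested, that do not include the members. In PRMT5KO 25 of these were called higher and 3 lower, beside 8.73% and 8.30% of all genes, and the median log2 fold change was 0.144. By sgRNA, 5 were called higher in sgPRMT5-1 beside 1.52% of all genes, 55 in sgPRMT5-2 beside 20.9%, and 35 in sgPRMT5-2 against sgPRMT5-1 beside 9.94%. Called lower were 1 in sgPRMT5-1, 10 in sgPRMT5-2 and 3 in sgPRMT5-2 against sgPRMT5-1. Called in either direction were 3.76%, 40.1% and 19.2% of all genes in turn. In sgWDR77-1 0 were higher and 3 lower, beside 2.71% of all genes called. In sgWDR77-2 3 were higher and 3 lower, beside 4.97%. In PRMT5KO the number called higher was 1, 4 and 14 without sgNeg replicates 1, 2 and 3. All genes called in either direction were then 3.43%, 4.8% and 9.19%. The number was 36, 33 and 15 without sgPRMT5-1 replicates 1, 2 and 3, beside 25.3%, 22.2% and 13% of all genes. Without those of sgPRMT5-2 it was 13, 12 and 13, beside 9.32%, 9.37% and 9.9%. With library totals alone 16 were called higher and 4 lower, and with upper quartile scaling 30 and 2, beside 16.3% and 18.9% of all genes. With the replicate block there were 18 and 1, and with all 15 libraries in 1 fit 33 and 2, beside 12.1% and 22.8%. The U5 and tri-snRNP list, whose proteins join the spliceosome after U1 and U2, had 9 of 14 called higher and a median of 0.367, with 2 called higher in sgPRMT5-1 and 12 in sgPRMT5-2. Other SF3A and SF3B genes had 3 of 9 called higher, exon junction and nonsense-mediated decay genes 4 of 13, SR-related proteins and their kinases 4 of 20 tested, other hnRNPs 2 of 16, other regulators 1 of 15 and the SMN complex 1 of 6 tested. Other LSm genes had 0 of 8 called by limma voom, the minor spliceosome had 2 of 7 called lower, and the methylosome had 1 higher and 1 lower, the latter PRMT5 itself. In WDR77KO 0 of the 113 were called higher and 2 lower by limma voom, WDR77 itself and PDCD7, beside 3.39% of all genes. At an unadjusted p under 0.05 there were 4 higher and 10 lower. Without sgWDR77-1 replicate 1 there were 5 called lower, beside 4.79% of all genes, and limma-trend gave 0 higher and 2 lower with all libraries, beside 3.11%. With all 15 libraries in 1 fit there were 2 higher and 9 lower, beside 8.44%.

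BCLAF1 (ENSG00000029363.17), an SR-related RNA-binding protein, stood at 137, 155 and 167 CPM in sgNeg, at 208, 198 and 208 in sgPRMT5-1, and at 275, 259 and 252 in sgPRMT5-2. Each of the 6 PRMT5KO libraries lay above sgNeg, with a log2 fold change of 0.59 (SE 0.113, adjusted p 0.00614), lost without sgNeg replicate 1 (adjusted p 0.0562). STRAP (ENSG00000023734.11), a partner of the SMN complex, stood at 346, 323 and 372 CPM in sgNeg, at 404, 438 and 461 in sgPRMT5-1, and at 498, 506 and 521 in sgPRMT5-2. All 6 again lay above sgNeg, with a log2 fold change of 0.43 (SE 0.086, adjusted p 0.00779), lost without sgNeg replicate 2 (adjusted p 0.0522). In WDR77KO neither gene was called, with log2 fold changes of 0.42 for BCLAF1 (adjusted p 0.167) and 0.22 for STRAP (adjusted p 0.317). BCLAF1 was called there with all 15 libraries in 1 fit (adjusted p 0.0482). PDCD7 (ENSG00000090470.15), a protein of the minor spliceosome, stood at 64.8, 64.3 and 70.0 CPM in sgNeg, at 46.4, 45.5 and 45.4 in sgWDR77-1, and at 46.2, 46.6 and 50.8 in sgWDR77-2. All 6 WDR77KO libraries lay below sgNeg, with a log2 fold change of −0.50 (SE 0.096, adjusted p 0.00746), and PDCD7 was also called lower in PRMT5KO (−0.31, SE 0.091, adjusted p 0.0312), where all 6 libraries lay below sgNeg. The WDR77KO call was lost without sgNeg replicate 3 (adjusted p 0.0686), and the PRMT5KO call without any single library of sgNeg or sgPRMT5-2, at adjusted p from 0.0618 to 0.0845, with no filter beyond 1 read (0.0605) and with the replicate block (0.0508).

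The counts of some members are uncertain because of neighboring genes or copies. The methods name a library kit without strand information and the labels a stranded kit, and the strand setting of the counting is not given in the sources used here. By the annotation, 21 of the 50 members share exon bases with another gene, 11 of them on the same strand and 14 on the opposite strand. For 6 members a single other gene covers over 10% of the exon length, namely SRSF9 (43.6%, opposite strand), SRSF1 (32.7%, same strand), SRSF2 (27.7%, opposite), HNRNPU (15.6%, opposite), SNRPD3 (14.0%, same) and SRSF6 (13.4%, same). Of the members called in PRMT5KO, HNRNPU is among these 6, and of those called between the knockouts, SRSF9. Pseudogenes named for a member are most numerous for HNRNPA1, with 74, followed by SNRPG with 20 and SNRPC with 18.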

How the data were processed

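RNA of 15 HSC-5 libraries was aligned to hg38 with STAR and counted with htseq-count by the authors, and the files were deposited as counts of reads for each gene without normalization. The 5 summary entries of htseq-count were left out of library sizes: these are reads in no gene (2.75% to 7.16%), reads shared by several genes (7.09% to 7.93%) and reads with several alignments (9.49% to 13.1%), while 2 entries were empty. Gene totals ran from 5146711 to 6730428.

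Genes with a mean normalized count of at least 3 were tested with limma voom (limma 3.58.1, R 4.3.3) after TMM scaling (trims 0.3 and 0.05), tested on simulated data. DESeq2, the authors' tool, was not used, because an automatic check did not recognize the count column, though it holds whole numbers of reads. Each of the 9 comparisons was fitted on its own groups, p-values were adjusted by Benjamini-Hochberg over all genes tested, and genes were called at an adjusted p under 0.05. Members, lists and comparisons were chosen with earlier results of these data known. Alternatives were RLE or upper quartile scaling, library totals alone, no filter beyond 1 read, a mean count of at least 10, limma-trend (prior count 2), a replicate block, all 15 libraries in 1 fit, and leaving out each library.

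Genes named were SNRPB, SNRPD1 and SNRPD3 in every comparison; the 6 called members per direction with the smallest adjusted p in each knockout; in each of the 8 role groups the member with the largest absolute log2 fold change in each knockout; the 5 smallest adjusted p between the knockouts and between the PRMT5 sgRNAs; members called in both knockouts, of which there were 0 by limma voom; the 5 highest and 5 lowest members per kilobase in sgNeg; the 2 called pathway genes with the smallest adjusted p in each knockout; and the targeted genes. Other members, such as SNRPD2, SNRPG, HNRNPD, SRSF2, SRSF3, SRSF4 and TRA2B, were named after their values were seen. Exon lengths, positions and sequences came from the GENCODE annotation and the hg38 genome, with lengths summed over all annotated transcripts of a gene. The coding stretch of SNRPD1 is not reported here.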

Additional observations from a re-analysis of the deposited data

Results flagged for a closer look

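In the 6 libraries of a pooled knockout, a library was picked out when its gap to the nearest other library, divided by the whole range of the 6, was over Dixon's 95% critical value for 6 samples. Of 62 groups of 6 tested, 11 were past it. Chance picks out about 1 in 20 groups drawn from 1 population. Here each group joins 2 sgRNAs and the genes share the same libraries, so the 11 cannot be set against that rate. In WDR77KO 8 of them were sgWDR77-1 replicate 1, with ratios of 0.643 for SNRPB, 0.648 for SNRPD1, 0.666 for SNRPD3, 0.706 for LSM6, 0.801 for HNRNPA1, 0.689 for HNRNPA2B1, 0.865 for HNRNPH1 and 0.73 for HNRNPR. The library was the lowest of the 6 for SNRPB, at 55.0 CPM, and the highest for the other 7 genes. U2AF2 gave 0.685 for sgWDR77-2 replicate 1, at 295 CPM. In PRMT5KO, HNRNPC gave 0.636 for sgPRMT5-1 replicate 1, which was the lowest at 835 CPM, and HNRNPF gave 0.651 for sgPRMT5-1 replicate 3, which was the highest at 474 CPM.

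The effects of the knockouts differed for 5 members by the direct test of PRMT5KO against WDR77KO, with adjusted p-values of 0.0190149 for SRSF9, 0.0190415 for U2AF2, 0.0208778 for SNRPB2, 0.0305123 for SNRPF and 0.0394842 for SNRPE. All 5 were higher in PRMT5KO. Of the 12 fits that left out a library, U2AF2 was called in 8, SNRPB2 in 7, SRSF9 in 6, SNRPF in 4 and SNRPE in 3, and all but SNRPE were called without sgWDR77-1 replicate 1. None of the 5 was called by limma voom when sgPRMT5-2 replicate 1, 2 or 3 or sgWDR77-1 replicate 2 was left out, with 8 to 12 members at an unadjusted p under 0.05.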

How the results depend on the processing

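The count of called members changed by more than 1.5 times under these alternatives. With library totals alone it was 4 in PRMT5KO, 1 in WDR77KO and 0 in sgPRMT5-1 (4 at an unadjusted p under 0.05 by limma voom), beside 16.3%, 3.45% and 3.73% of all genes. With no filter beyond 1 read it was 4 in sgPRMT5-1 and 8 in sgPRMT5-2 against sgPRMT5-1, beside 3.81% and 10.5%. With all 15 libraries in 1 fit it was 2 in WDR77KO, 0 in sgPRMT5-1 (6 unadjusted), 7 in sgWDR77-1, 0 in sgWDR77-2 (5 unadjusted), 0 in sgPRMT5-2 against sgPRMT5-1 (3 unadjusted), 3 in sgWDR77-2 against sgWDR77-1 and 15 between the knockouts, beside 8.44%, 2.87%, 9.48%, 4.79%, 7.53%, 2.41% and 27.1% of all genes in turn. The cause was not tested.

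With a replicate block the counts were 6 in PRMT5KO, 0 in WDR77KO, 5 in sgPRMT5-1, 17 in sgPRMT5-2, 0 in sgWDR77-1, 0 in sgWDR77-2 (5 unadjusted by limma voom), 4 in sgPRMT5-2 against sgPRMT5-1, 0 in sgWDR77-2 against sgWDR77-1 and 4 between the knockouts, beside 12.1%, 2.37%, 10.1%, 39.7%, 2.92%, 2.63%, 20.2%, 0.128% and 10.6% of all genes in turn. Taken over all groups, libraries with the same replicate number were not more alike. Their correlations ran from −0.28 to 0.231 over 30 pairs with a median of −0.009, beside 0.0015 over 60 other pairs. The correlations are across genes, which are not independent replicates. Pairs of groups differed. Same-number libraries of sgNeg and sgPRMT5-1 gave 0.052, 0.096 and 0.231, and those of sgNeg and sgWDR77-2 gave −0.211, 0.06 and −0.138. Whether a replicate number marks a shared batch was not tested.

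Leaving out 1 library gave 0 to 12 called members in PRMT5KO, 0 to 1 in WDR77KO, 0 to 3 in sgPRMT5-1, 17 to 21 in sgPRMT5-2, 0 to 5 in sgWDR77-1, 0 to 1 in sgWDR77-2, 1 to 13 in sgPRMT5-2 against sgPRMT5-1, 0 to 1 in sgWDR77-2 against sgWDR77-1, and 0 to 12 between the knockouts. Beside each highest count, the share of all genes called was 25.3%, 4.79%, 3.60%, 38.4%, 7.01%, 4.68%, 33.6%, 1.11% and 13.5% in turn. These fits have fewer samples. RLE or upper quartile scaling, a mean count of at least 10 and limma-trend left every count within 1.5 times. The 8 members called in PRMT5KO have 136 values under all alternatives, of which 90 kept the call, 46 lost it and 0 reversed. Among the values of all 31 named members in the pooled knockouts, 11 gained a call and 51 changed sign uncalled. With 6 libraries against 3, the median 95% interval of a member reached 0.174 to either side in PRMT5KO and 0.261 in WDR77KO.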
